A study of Mus musculus with 9 samples.

Results

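The pyruvate dehydrogenase kinases Pdk1, Pdk2, Pdk3 and Pdk4 were followed across livers of mice lacking 1 or both of the corepressors SMRT and NCoR. They were found by symbol among the probe sets annotated to a single gene, and each was represented by the probe set chosen by its highest mean over the 9 arrays. All 4 genes had such a probe set, 5 probe sets of the 41345 on the array in total, and they were 4 of the 22180 genes tested. Pdk4 was singled out because an earlier analysis of the same arrays had shown its difference in double KO livers. Its differences between groups are therefore given as a description, with an error and no test.

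Liver RNA from 3 groups of 3 individual mice was hybridised to Affymetrix whole-transcript arrays, each mouse on its own array. In the double KO group SMRT and NCoR were both deleted liver-specifically, in the SMRT KO group SMRT was, and the control group was double-floxed, with conditional alleles and no deletion. All 9 mice were euthyroid females of 7 to 9 weeks on standard chow, of mixed 129SV/B6 background. The promoter that drove the recombinase and the Ncor1 allele of SMRT KO mice are not given in the sources used here. No group lacked NCoR alone, so loss of NCoR could be read only on top of SMRT loss, as double KO against SMRT KO. That comparison and double KO against control share the double KO mice, and both comparisons with control share the control mice. Double KO against SMRT KO and SMRT KO against control share the SMRT KO mice. The values of the comparisons are therefore set side by side and do not support one another.

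The pyruvate dehydrogenase complex turns pyruvate into acetyl-CoA in mitochondria and so links glucose breakdown to the citric acid cycle. Pyruvate dehydrogenase kinases phosphorylate the complex and switch it off, and pyruvate dehydrogenase phosphatases switch it on again. In liver, Pdk2 is the widely present kinase and Pdk4 the one induced by fasting, fatty acids and glucocorticoids through receptors that include PPAR alpha and through FOXO1, whereas Pdk1 is known as a target of hypoxia-inducible factor. SMRT and NCoR bind nuclear receptors, among them thyroid hormone receptors, and hold target genes at a low level.

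Because nuclear receptors bind DNA near their targets, the 250 bases before the RefSeq starts of the kinase genes are described here, on build GRCm38.p6. The Pdk4 window lies at chr6:5496279-5496528 on the minus strand, and the windows of 2 annotated Pdk1 starts at chr2:71872974-71873223 and chr2:71874654-71874903 on the plus strand. They are shown because Pdk4 and Pdk1 are the kinases whose double KO values lay above those of both other groups. Capitals mark a nuclear receptor hexamer, spelled AGGTCA or GGGTCA or AGTTCA or GGTTCA and searched on both strands.
Pdk4: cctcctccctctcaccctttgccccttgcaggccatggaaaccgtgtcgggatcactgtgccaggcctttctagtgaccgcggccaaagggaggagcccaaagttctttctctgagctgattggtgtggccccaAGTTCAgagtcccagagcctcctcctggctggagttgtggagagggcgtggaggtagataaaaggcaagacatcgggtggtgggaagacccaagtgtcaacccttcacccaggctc
Pdk1 first start: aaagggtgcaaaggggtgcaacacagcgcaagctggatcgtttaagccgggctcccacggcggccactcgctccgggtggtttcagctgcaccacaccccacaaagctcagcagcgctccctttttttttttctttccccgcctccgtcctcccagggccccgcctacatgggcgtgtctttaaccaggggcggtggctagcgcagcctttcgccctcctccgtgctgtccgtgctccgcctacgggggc
Pdk1 second start: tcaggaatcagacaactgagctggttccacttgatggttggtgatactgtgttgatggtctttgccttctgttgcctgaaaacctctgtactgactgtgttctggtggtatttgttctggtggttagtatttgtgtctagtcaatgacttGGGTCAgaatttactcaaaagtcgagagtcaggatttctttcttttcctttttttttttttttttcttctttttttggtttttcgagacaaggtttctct
The Pdk4 window held 1 such hexamer, AGTTCA, beginning 116 bases before the start. The second Pdk1 window held 1, GGGTCA, 100 bases before its start, and the first held 0. The windows of the 2 Pdk2 starts on chromosome 11 and the Pdk3 start on chromosome X also held 0. Of all 32851 windows of that length, 38.6% held at least 1 hexamer. The FOXO core GTAAACA was at 0 in all 6 windows and was present in 3.17% of all windows. The hypoxia response core ACGTG or GCGTG was found in the first Pdk1 window, in 1 Pdk2 window, in the Pdk3 window and in the Pdk4 window, and in 38.6% of all windows. These matches are descriptions of sequence and do not show binding.

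Pdk4 was higher in double KO livers than in either other group. Its log2 expression was 9.17, 9.13 and 10.43 in double KO livers, 7.71, 6.70 and 7.19 in SMRT KO livers, and 7.14, 7.76 and 6.75 in control livers. Every double KO value lay above all 6 other values, the lowest of them 1.43 above the highest SMRT KO value and 1.37 above the highest control value, while SMRT KO and control values were interleaved. The difference was 2.36 on the log2 scale against control (SE 0.391, 95% interval 1.48 to 3.24), which is 5.13-fold with an interval of 2.79 to 9.44. Against SMRT KO it was 2.38 (SE 0.391, interval 1.5 to 3.26), or 5.21-fold. SMRT KO minus control was -0.02 with an interval of -0.90 to 0.86, so a change of Pdk4 of up to 1.81-fold higher in SMRT KO lay within the interval.

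Pdk4 also varied widely between mice of the same group. Its standard deviation within groups was 0.593, at the 99.7th percentile of all genes, where the median gene had 0.117. The Pdk4 errors and intervals above rest on a spread that limma draws toward that of other genes. They are therefore narrower than the spread of Pdk4 alone would give. Double KO replicate 3 was the highest liver, and without it the double KO difference was 1.93 against control and 1.96 against SMRT KO. Over the 9 fits that each left out 1 mouse, the difference ranged from 1.93 to 2.63 against control and from 1.96 to 2.63 against SMRT KO.

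**Figure D1:**
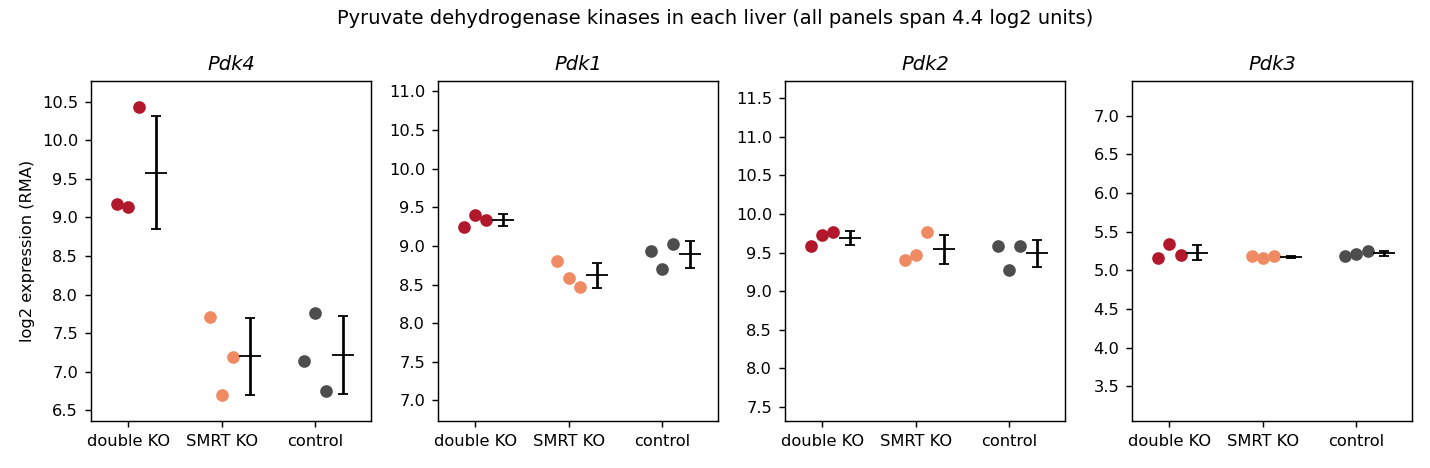
Log2 expression of Pdk4, Pdk1, Pdk2 and Pdk3 in each of the 9 livers, 1 panel per gene, with points for mice and bars for the group mean ± SD (n = 3 each). Pdk4 lies between 9.13 and 10.43 in double KO livers, above every SMRT KO and control value, Pdk1 shows a smaller shift, and Pdk2 and Pdk3 overlap between groups.

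Pdk1, the kinase best known from the response to low oxygen, was modestly higher in double KO livers. Its log2 expression was 9.24, 9.40 and 9.34 in double KO livers, 8.80, 8.59 and 8.47 in SMRT KO livers, and 8.94, 8.70 and 9.03 in control livers. The double KO values lay above all others, and SMRT KO and control values overlapped. Pdk1 rose against SMRT KO, by 0.71 (SE 0.108, interval 0.47 to 0.95, 1.63-fold, limma adjusted p = 0.0162). Against control the difference was 0.44 (SE 0.108, interval 0.19 to 0.68, 1.36-fold) and did not pass the test (adjusted p = 0.136). SMRT KO minus control was -0.27 (interval -0.51 to -0.03, adjusted p = 0.826).

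Over all genes, 263 were called against SMRT KO at an adjusted p below 0.05, or 1.19%, of which 0.748% were higher and 0.437% lower in double KO livers. Against control 187 were called, or 0.843%, with 0.523% higher and 0.32% lower. SMRT KO against control gave 1 called gene, or 0.00451%. At an unadjusted p below 0.05 stood 10.8% of all genes for double KO against control, 10.5% for double KO against SMRT KO and 6% for SMRT KO against control, and the unadjusted counts of gene lists given further on are to be read against these shares. Among Pdk1, Pdk2 and Pdk3, 1 of 3 was called against SMRT KO, and 0 in the other comparisons. All 3 double KO values lay above all 3 control values for 7.73% of all genes, and above all 3 SMRT KO values for 7.54%. The lack of overlap alone therefore says little about Pdk1, or about any other gene whose double KO values lie above the rest. How many of all genes had all double KO values below the rest, or all SMRT KO values above control, was not counted. Such separations are given further on as descriptions only. Leaving out a single mouse ended the Pdk1 call in 4 of 9 fits. The adjusted p was then 0.0559 without SMRT KO replicate 2, 0.0552 without SMRT KO replicate 3, 0.0883 without double KO replicate 2 and 0.0625 without double KO replicate 3. A further Pdk1 probe set, with a mean of 3.32, was above the 95th percentile of olfactory and vomeronasal receptor genes, a guide to background, on 0 of 9 arrays, so it bears on neither comparison.

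Pdk2, the widely present liver kinase, had no called difference. It measured 9.59, 9.73 and 9.76 in double KO livers, 9.40, 9.47 and 9.76 in SMRT KO livers, and 9.59, 9.28 and 9.59 in control livers, all on the log2 scale. The 3 groups overlapped, with the highest double KO and SMRT KO livers equal at 9.76. The difference was 0.20 against control (interval -0.06 to 0.47, adjusted p = 0.603) and 0.15 against SMRT KO (interval -0.12 to 0.41, adjusted p = 0.759). SMRT KO minus control was 0.05 (interval -0.21 to 0.32, adjusted p = 0.979).

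Pdk3, a kinase known mainly from other tissues, measured 5.16, 5.34 and 5.20 in double KO livers, 5.18, 5.16 and 5.19 in SMRT KO livers, and 5.19, 5.21 and 5.25 in control livers. These values were almost the same in every liver. They lay below the 95th percentile of 1390 olfactory and vomeronasal receptor genes, which was 5.91 to 6.22 over the arrays and served as a guide to background, so Pdk3 was not shown to be above background. Its differences were 0.02 against control (interval -0.13 to 0.16, adjusted p = 0.962), 0.06 against SMRT KO (interval -0.09 to 0.20, adjusted p = 0.840) and -0.04 for SMRT KO minus control (interval -0.19 to 0.10, adjusted p = 0.962).

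Of the 5 subunits of the complex that the kinases inhibit, Dlat rose in double KO livers against control, and Dlat and Pdha1 rose against SMRT KO. All 5 measured subunits had a positive difference against control, with a median log2 fold change of 0.32, and against SMRT KO, with a median of 0.34, where the median of all genes was 0.0 in both. Dlat, the acetyl-transferase core subunit, measured 9.47, 9.50 and 9.48 in double KO livers, 9.12, 9.07 and 9.06 in SMRT KO livers, and 9.07, 8.98 and 9.18 in control livers. Its double KO values were tightly grouped above all others. Dlat rose by 0.41 against control (1.33-fold, adjusted p = 0.0262) and by 0.40 against SMRT KO (1.32-fold, adjusted p = 0.0243). Pdha1, the subunit that the kinases phosphorylate, measured 9.51, 9.59 and 9.77 in double KO livers, 9.10, 9.26 and 9.11 in SMRT KO livers, and 9.14, 9.26 and 9.28 in control livers. Pdha1 rose by 0.47 against SMRT KO (1.38-fold, adjusted p = 0.0366), and its difference of 0.40 against control did not pass (adjusted p = 0.0821).

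The other 3 subunits were not called. Pdhb, the second subunit of the decarboxylase, differed by 0.32 against control (adjusted p = 0.178) and 0.34 against SMRT KO (0.118). Pdhx, which anchors the dehydrogenase Dld to the core, differed by 0.25 in both comparisons (adjusted p = 0.320 and 0.298). Dld itself, which other complexes share, differed by 0.19 in both (0.451 and 0.468). The Dlat calls were lost in 7 of the 17 alternative settings in each comparison, without each double KO mouse and with a replicate block among them, with an adjusted p of up to 0.122 against control and 0.108 against SMRT KO. Leaving out control replicate 1 or 2, or each SMRT KO mouse in the SMRT KO comparison, also ended a Dlat call. The Pdha1 call was lost in 8 of 17, with an adjusted p of up to 0.129, among them the fits without each SMRT KO mouse, double KO replicates 2 and 3 and control replicates 2 and 3. In SMRT KO against control 0 of 5 subunits were called, with differences from -0.07 to 0.01. At an unadjusted limma p below 0.05 there were 5 of 5 in each double KO comparison and 0 in SMRT KO against control.

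Of the phosphatases that oppose the kinases, Pdp2 was higher in double KO livers and the others were not called. Pdp2, a catalytic subunit, measured 8.30, 8.19 and 8.39 in double KO livers, 7.63, 7.49 and 7.42 in SMRT KO livers, and 7.89, 7.69 and 7.87 in control livers. Its double KO values stood apart from all others. Each SMRT KO value lay below each control value, and how many of all genes do so was not counted. Pdp2 rose by 0.78 against SMRT KO (SE 0.0865, 1.72-fold, adjusted p = 0.00403), a call kept in all 17 alternative settings. Against control it rose by 0.48 (SE 0.0865, 1.39-fold, adjusted p = 0.042), but this call was lost in 12 of the 17, with an adjusted p of up to 0.142. These included the fits without each mouse other than SMRT KO replicate 1. SMRT KO minus control was -0.30 (adjusted p = 0.634). Pdp1, the other catalytic subunit, differed by 0.07 against control (adjusted p = 0.762) and 0.00 against SMRT KO (0.994). Pdpr, the regulatory subunit, differed by 0.09 (0.793) and 0.21 (0.417).

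**Figure D2:**
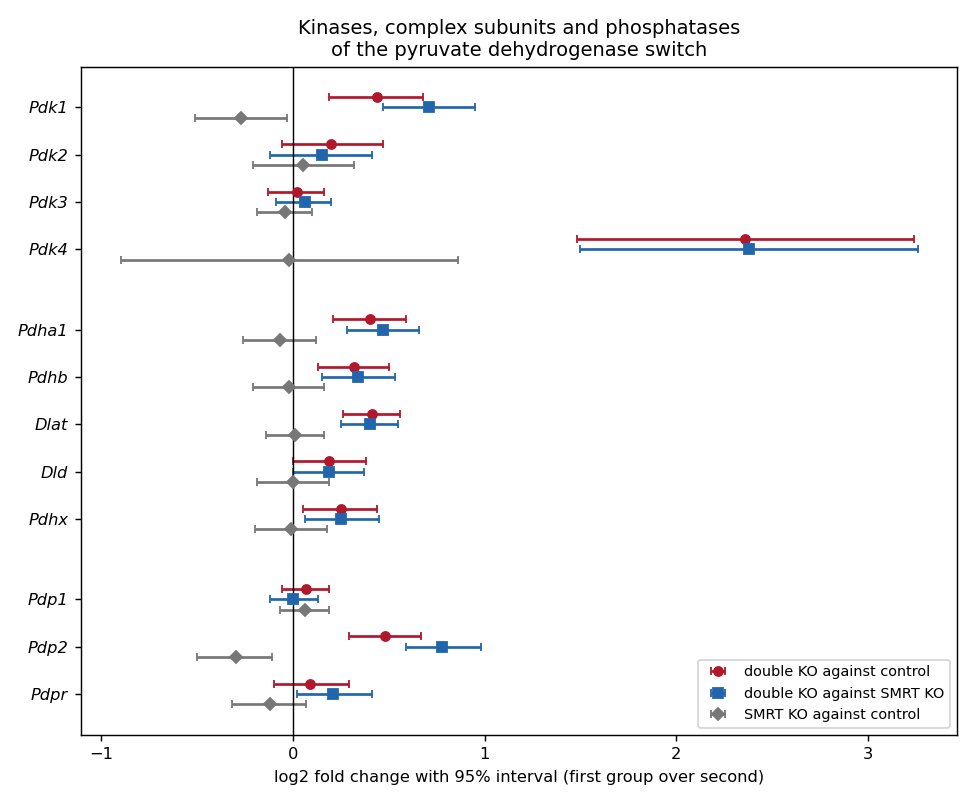
Log2 fold change with its 95% interval (horizontal axis) for each kinase, complex subunit and phosphatase (vertical axis), for double KO against control, double KO against SMRT KO and SMRT KO against control. Pdk4 lies at 2.36 and 2.38 in the double KO comparisons with wide intervals, and the complex subunits lie between 0.19 and 0.47.

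The related branched-chain keto acid dehydrogenase, which has a kinase and a phosphatase of its own, was measured as a comparison. Of its 5 genes 0 were called in any of the 3 comparisons, with medians of -0.05 for double KO against control, 0.02 for double KO against SMRT KO and -0.09 for SMRT KO against control. Its lowest limma adjusted p-values were 0.312, 0.531 and 0.826, and 1, 0 and 1 of its genes had an unadjusted p below 0.05. Bckdk, the kinase, differed by 0.01 against control and 0.02 against SMRT KO.

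Among 15 measured genes of pyruvate supply and use, 1 was higher and 1 lower in double KO livers against SMRT KO, and 0 and 1 against control, with medians of 0.06 and 0.01. Cs, the citrate synthase that consumes the acetyl-CoA formed by the complex, measured 10.39, 10.45 and 10.28 in double KO livers, 9.92, 9.99 and 9.78 in SMRT KO livers, and 10.01, 10.16 and 9.96 in control livers. Its double KO values lay above all others. Cs rose by 0.47 against SMRT KO (1.39-fold, adjusted p = 0.03), a call lost in 6 of 17 alternative settings (without each double KO mouse, and without SMRT KO replicate 1 or 3, among them; adjusted p up to 0.132), and differed by 0.33 against control (adjusted p = 0.144). Pck1, a cytosolic enzyme that draws on pyruvate-derived oxaloacetate for glucose synthesis, measured 12.33, 12.30 and 12.33 in double KO livers, 13.16, 13.00 and 13.10 in SMRT KO livers, and 13.10, 12.88 and 13.04 in control livers. The double KO livers were the 3 lowest. Pck1 fell by 0.68 against control (1.61-fold lower, adjusted p = 0.00395) and by 0.76 against SMRT KO (1.70-fold lower, adjusted p = 0.00219), and kept both calls in all 17 alternative settings. The mitochondrial pyruvate carrier subunit Mpc1 differed by -0.06 against control and -0.03 against SMRT KO, and pyruvate carboxylase Pcx by 0.00 and 0.06, none of them called.

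**Figure D3:**
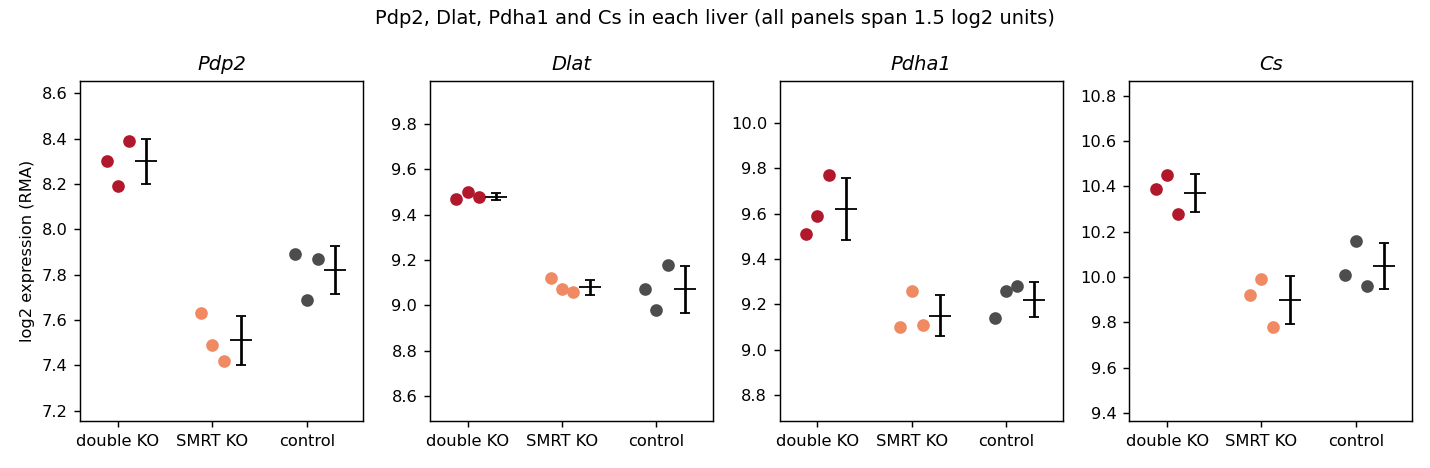
Log2 expression of the phosphatase Pdp2, the complex subunits Dlat and Pdha1 and the citrate synthase Cs in each of the 9 livers, with points for mice and bars for the group mean ± SD (n = 3 each). In every panel the 3 double KO livers lie above all SMRT KO and control livers. Each of these genes was called in a double KO comparison, so the separation follows in part from that choice. Of all genes, 7.73% were so separated from control and 7.54% from SMRT KO.

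The receptors and factors known to act on Pdk4 were mostly not called at the RNA level. Of 20 genes, 1 was higher and 0 lower in double KO livers against control, and 0 were called against SMRT KO or in SMRT KO against control, with medians of -0.02, -0.03 and -0.04. At an unadjusted p below 0.05 by limma there were 7, 6 and 4 of them. The called gene was Pparg, a lipid-sensing receptor, which measured 8.62, 8.65 and 8.52 in double KO livers, 8.63, 8.60 and 8.65 in SMRT KO livers, and 7.98, 8.28 and 7.95 in control livers. Double KO and SMRT KO values overlapped, and both lay above control. Pparg rose by 0.52 against control in double KO livers (1.44-fold, adjusted p = 0.0346). The difference in SMRT KO livers was 0.56 (1.47-fold, adjusted p = 0.223), and that between double KO and SMRT KO was -0.03 (0.948). The Pparg call in double KO livers was lost in 10 of 17 alternative settings, with an adjusted p of up to 0.158, among them the fits without each mouse other than control replicate 2.

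Ppara, the receptor best known for Pdk4 induction by fatty acids, differed by 0.00 against control (adjusted p = 0.997) and 0.22 against SMRT KO (0.403). Foxo1 differed by -0.10 and -0.06 (0.889 and 0.946) and the glucocorticoid receptor gene Nr3c1 by -0.05 and -0.03 (0.876 and 0.948). Larger differences, also not called, were those of Foxo3 (-0.50 and -0.36, limma adjusted p = 0.0862 and 0.214), Lpin1 (-1.19 and -1.02, 0.13 and 0.184) and Ppard (0.34 and 0.29, 0.096 and 0.153). Of the 20 genes, 10 had a difference above 0 against control and 8 against SMRT KO. The coactivator gene Ppargc1a was at 7.61, 7.94 and 7.68 in double KO livers, 8.97, 8.21 and 9.25 in SMRT KO livers, and 8.91, 8.39 and 8.77 in control livers. All 3 double KO values lay below the rest, and how many of all genes do so was not counted. The differences of -0.94 against control (adjusted p = 0.159) and -1.07 against SMRT KO (0.0889) did not pass.

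Known PPAR alpha targets other than Pdk4 were higher in part. Of 28 measured, 7 rose and 0 fell against control and 5 rose and 0 fell against SMRT KO, with medians of 0.25 and 0.37. In SMRT KO against control 0 were called by limma. At an unadjusted limma p below 0.05 there were 14 against control, 15 against SMRT KO and 5 in SMRT KO against control. Acot1 and Acot2, acyl-CoA thioesterases, Ehhadh and Acaa1b, peroxisomal fatty acid oxidation enzymes, and Plin2, a lipid droplet coat protein, were called in both double KO comparisons. Ehhadh measured 12.99, 12.93 and 12.96 in double KO livers, 11.54, 11.25 and 11.16 in SMRT KO livers, and 11.30, 11.76 and 11.03 in control livers. The double KO livers were closely matched and above all others. Ehhadh rose by 1.64 against SMRT KO (3.11-fold, adjusted p = 0.00279) and by 1.59 against control (3.02-fold, adjusted p = 0.00357).

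Against SMRT KO, Acot1 rose by 1.65 (adjusted p = 0.007), Acaa1b by 1.45 (0.0061), Acot2 by 1.11 (0.0147) and Plin2 by 0.88 (0.00323). Acot1 and Acot2 are near-identical copies, and how far their probes cross-hybridise was not tested. The Acot2 call did not survive leaving out SMRT KO replicate 1 or 3 or double KO replicate 2 (adjusted p up to 0.0579 over its alternatives). Cd36, a fatty acid transporter, rose by 1.31 against control (adjusted p = 0.00309) and differed by 0.66 against SMRT KO (0.0539). Fitm1, a droplet formation protein, rose by 1.05 against control (0.0276) and differed by 0.81 against SMRT KO (0.0704). Each of the Acaa1b, Plin2 and Fitm1 calls against control was lost in some fits without 1 mouse: for Acaa1b without each double KO mouse, for Plin2 without double KO replicate 1 or 3 or control replicate 1 or 3, and for Fitm1 without each double KO mouse, SMRT KO replicate 1 or control replicate 2 or 3. A further Fitm1 probe set gave 0.19 against control, where the one used gave 1.05. Other well-known targets were not called, among them Cpt1a (-0.11 against control, adjusted p = 0.597), Angptl4 (-0.19, 0.800), Cyp4a14 (0.51, 0.259) and Fgf21 (-0.04, 0.950). Fgf21 had group means of 5.92, 6.05 and 5.97 in double KO, SMRT KO and control livers. These lay near the 95th percentile of olfactory and vomeronasal receptor genes, so Fgf21 was not shown to be above background.

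Genes that respond to fasting, FOXO1 and glucocorticoids, the other known inducers of Pdk4, had medians below 0 in double KO livers. Of 22 measured, 0 rose and 2 fell against control (median -0.21), and 0 rose and 3 fell against SMRT KO (median -0.38). In SMRT KO against control 0 were called by limma. At an unadjusted limma p below 0.05 there were 9 against control, 10 against SMRT KO and 0 in SMRT KO against control. Pck1 was among the called genes in both double KO comparisons. Tsc22d3, a glucocorticoid-induced leucine zipper gene, measured 8.27, 8.20 and 8.07 in double KO livers, 9.11, 8.82 and 9.09 in SMRT KO livers, and 9.06, 8.88 and 8.81 in control livers. The double KO livers were the lowest. Tsc22d3 fell by 0.74 against control (adjusted p = 0.0129) and by 0.83 against SMRT KO (0.0061), the first of these lost without double KO replicate 2 (0.067) or 3 (0.0556). Per1, a clock gene also induced by glucocorticoids, fell by 0.78 against SMRT KO (adjusted p = 0.0277), a call lost without each SMRT KO mouse, each double KO mouse or control replicate 3 (adjusted p up to 0.125), and differed by -0.64 against control (0.0763). The glucose-6-phosphatase gene G6pc differed by 0.32 against control (0.568) and 0.21 against SMRT KO (0.771).

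Hypoxia-inducible genes, the group to which Pdk1 is usually assigned, showed no called member. Of 14 measured, 0 were called by limma in any comparison, with lowest adjusted p-values of 0.0617 for double KO against control, 0.106 for double KO against SMRT KO and 0.826 for SMRT KO against control, and with medians of 0.06, -0.03 and 0.04. At an unadjusted p below 0.05 there were 4, 2 and 1. Adm and Car9 lay below the 95th percentile of olfactory and vomeronasal receptor genes, and Pfkfb4 and Hk2 near it, so these could show little. Ankrd37, Eno1, Aldoa and Ero1l were not found by symbol among the probe sets annotated to a single gene. Vegfa, the growth factor of blood vessels, differed by 0.06 against control (adjusted p = 0.811) and -0.06 against SMRT KO (0.843). Of 16 clock genes, Per1 was the 1 called, in double KO against SMRT KO, and the medians were 0.01, 0.01 and -0.01 in double KO against control, double KO against SMRT KO and SMRT KO against control, with 3, 4 and 0 at an unadjusted p below 0.05.

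**Figure D4:**
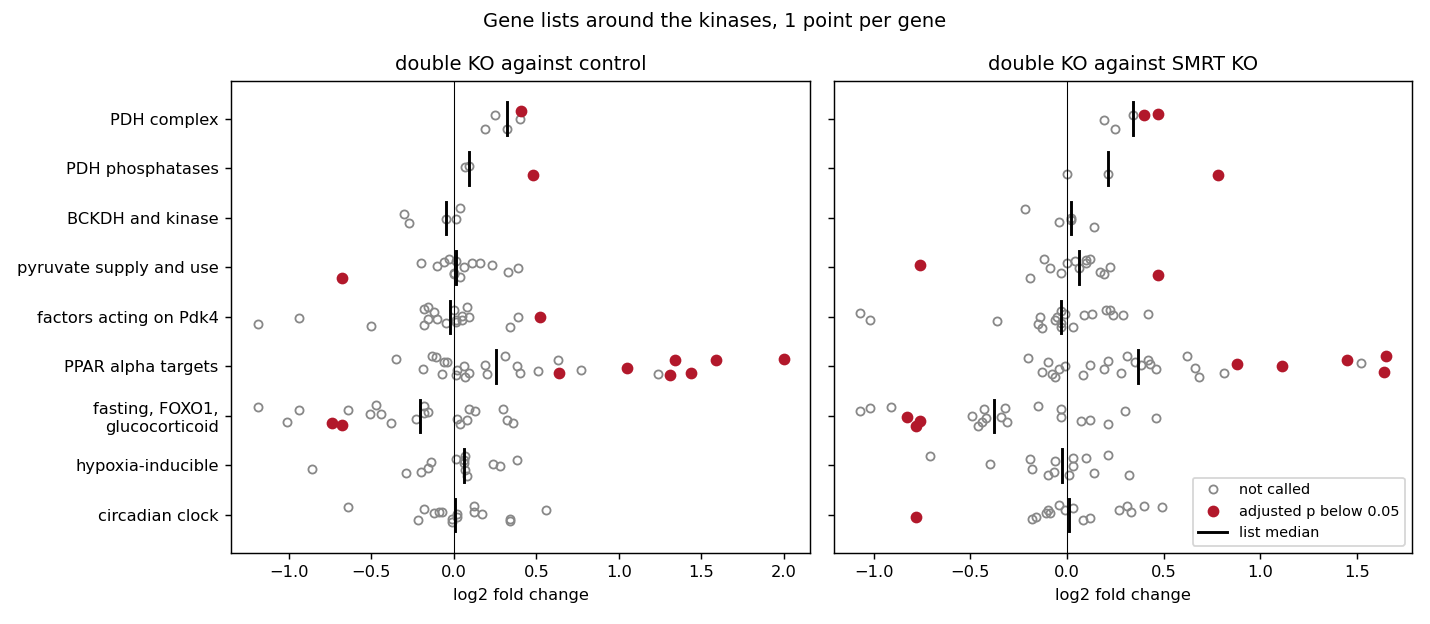
Log2 fold change (horizontal axis) of each measured gene in 9 lists around the kinases (vertical axis), for double KO against control on the left and double KO against SMRT KO on the right. Filled points passed an adjusted p of 0.05 and black bars mark list medians, which reach 0.34 for the complex and 0.37 for PPAR alpha targets and lie at -0.38 for fasting, FOXO1 and glucocorticoid genes against SMRT KO.

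The genes whose pattern was most like that of Pdk4 were found by the root mean square difference of log2 values over the 9 arrays, each gene centred on its own mean, among 22179 other genes. Pdk4's own spread on this measure was 1.22. The closest were Serpinb1a (0.418), Acot1 (0.466), Lepr (0.505), Lrrc19 (0.530) and Ehhadh (0.532), followed by Lpl (0.559), Akr1c18 (0.563), Gadd45b (0.588), Gask1a (0.608) and Pltp (0.609). They were chosen for their likeness to Pdk4, so their group differences are descriptions. Serpinb1a, a protease inhibitor, measured 7.41, 7.47 and 8.0 in double KO livers, 6.06, 5.37 and 5.72 in SMRT KO livers, and 6.24, 5.97 and 5.64 in control livers. Like Pdk4 it had double KO replicate 3 as its highest liver and SMRT KO replicate 2 as its lowest. Lepr, the leptin receptor, measured 9.14, 8.97 and 9.10 in double KO livers, 8.18, 6.27 and 7.30 in SMRT KO livers, and 7.46, 7.65 and 6.99 in control livers. It shared with Pdk4 the order of the 3 SMRT KO and of the 3 control livers, and not that of the double KO livers. Lpl, the lipoprotein lipase, differed by 1.80 against control. A further Lpl probe set had a mean of 4.57, below the receptor-gene percentile, and its difference is not set against this one.

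**Figure D5:**
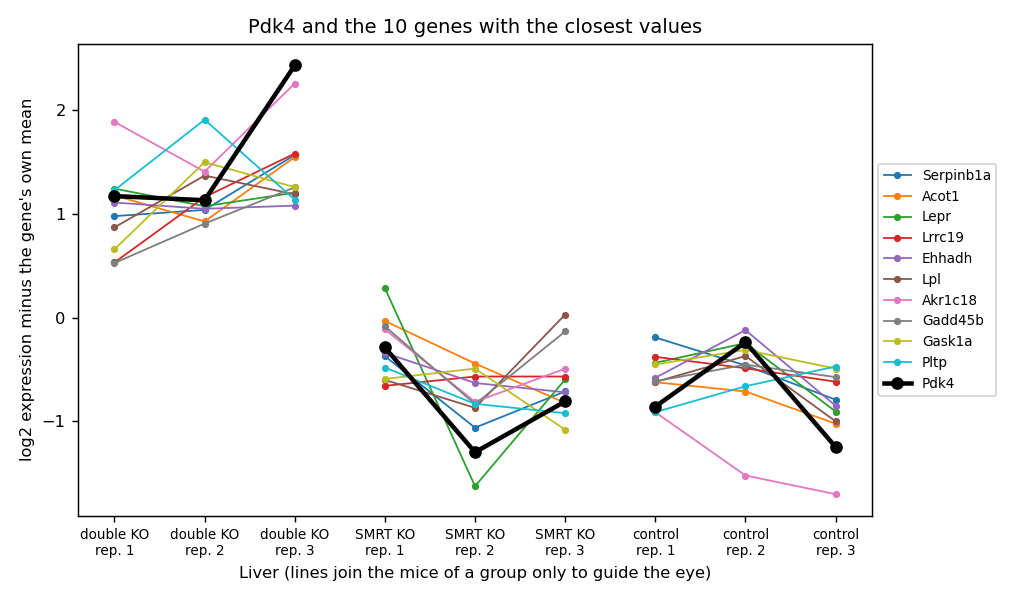
Log2 expression minus each gene's own mean (vertical axis) in the 9 livers (horizontal axis) for Pdk4 and the 10 genes closest to it, with lines only to guide the eye. All 11 genes are above their mean in the 3 double KO livers and near or below it in the others, and Pdk4 (black) and Akr1c18 reach furthest above 2 in double KO replicate 3.

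The other kinases lay farther from Pdk4 than these 10 genes. Pdk1 was the closest of them, at 0.994 and rank 195 of 22179, with Pdk2 at 1.16, rank 2536, and Pdk3 at 1.21, rank 8085. A gene with the same value on every array would lie at Pdk4's own spread, 1.22, and Pdk2 and Pdk3 were near that. The measure reflects the size of a difference as well as its pattern over mice. The closest genes to Pdk1 were Abcd3, a peroxisomal transporter of fatty acids (0.0883), the phosphatase Pdp2 (0.0897) and Snx10 (0.109), where Pdk1's own spread was 0.315. Abcd3 measured 12.57, 12.58 and 12.55 in double KO livers, 12.06, 12.00 and 11.63 in SMRT KO livers, and 12.12, 11.99 and 12.14 in control livers, again highest in double KO. For Pdk2, with a spread of 0.157, the closest were Olfr678 (0.0402), Gusb (0.06) and Klf1 (0.0616), and for Pdk3, with 0.0535, Crct1 (0.0207), Erg28 (0.024) and Smyd3 (0.0247).

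Bulk liver RNA cannot tell fewer cells of a type from less RNA per cell, and marker levels are given for that reason. All 10 hepatocyte markers were above the receptor-gene percentile on every array, and their mean log2 level was 12.10 to 12.13 in double KO livers, 12.21 to 12.33 in SMRT KO livers and 12.29 to 12.34 in control livers. Of these, 1 was called, Serpina1a, which fell by 0.47 against control (adjusted p = 0.0251). At an unadjusted p below 0.05 there were 4 of 10 in each double KO comparison and 0 in SMRT KO against control, and 2 of 10 differences were above 0 against control and 1 of 10 against SMRT KO. Skeletal muscle, a tissue rich in Pdk4, had 2 of 12 markers above that percentile on every array (Acta1 and Tnnt3), with mean levels of 5.49 to 5.64 in double KO, 5.59 to 5.64 in SMRT KO and 5.51 to 5.56 in control livers. Adipocytes, also rich in Pdk4, had 3 of 8 (Plin1, Fabp4 and Lipe), with mean levels of 6.09 to 6.14 in double KO, 5.96 to 6.03 in SMRT KO and 6.06 to 6.35 in control livers. Neither list had a called member by limma in any comparison, and at an unadjusted p below 0.05 there was at most 1 member of each list per comparison.

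Macrophage markers had mean levels of 8.39 to 8.57 in double KO, 8.60 to 8.85 in SMRT KO and 8.38 to 8.61 in control livers. All 10 were lower in double KO than in SMRT KO livers (median -0.23) and higher in SMRT KO than in control livers (median 0.27), with 0 called by limma and 4 and 5 at an unadjusted p below 0.05. Both of these rest on the same SMRT KO mice. In double KO against control 5 of 10 were above 0 (median 0.01), with 0 called and 1 at an unadjusted limma p below 0.05. Endothelial markers were at 9.18 to 9.45 in double KO, 9.31 to 9.46 in SMRT KO and 9.16 to 9.30 in control livers, with 0 of 8 called by limma and at most 1 at an unadjusted p below 0.05. Stellate and fibroblast markers were at 7.94 to 8.29 in double KO, 8.16 to 8.36 in SMRT KO and 8.21 to 8.43 in control livers. Of these 8, Lrat, the retinol-esterifying enzyme of stellate cells, was the 1 called, and it fell by 1.80 against control (3.49-fold lower, adjusted p = 0.000397) and by 1.91 against SMRT KO (3.76-fold lower, 0.000391). The list did not move as a whole, since 4 of 8 differences were above 0 against control and 3 of 8 against SMRT KO (medians -0.02 and -0.10). At an unadjusted limma p below 0.05 there were 2 in each double KO comparison and 0 in SMRT KO against control. The part of these marker differences in the results for the kinases was not tested.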

How the data were processed

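Values were used as the authors deposited them, as log2 expression per probe set and array, and per the submitters' processing notes RMA produced them. That method corrects background, equalises the distributions of all arrays and combines the probes of a probe set, so it would hide a shift common to most genes. Its version and the scanner settings are not given in the sources used here. Array medians were 5.96 to 6.02, correlations between arrays 0.987 to 0.992 within groups and 0.983 to 0.989 between groups, and 0 pairs of arrays were identical. Arrays have no read depth, and their number limits the precision.

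Of 41345 probe sets, 23521 had 1 gene symbol in the platform annotation, 1814 had several and 16010 were not listed. Symbols of 23328 matched RefSeq. The probe set with the highest mean over the 9 arrays was kept for each of 22180 genes, 1082 of which had more than 1. Groups came from the sample titles, and 0 array columns were left without a sample.

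A single linear model over the 9 arrays was fitted with limma (version 3.58.1, R version 4.3.3) and moderated by eBayes, giving two-sided tests on 6 residual and 3.36 prior degrees of freedom. Benjamini-Hochberg adjustment ran over all genes of a comparison, and a gene was called below 0.05. All adjusted p-values, standard errors and 95% intervals are from limma and use the moderated spread. An exact permutation test of 3 mice against 3 cannot go below 0.1 and was not used. The steps were tested on simulated data. The 17 alternatives were 9 fits that each left out 1 mouse and 8 other settings.

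The kinases and 15 further gene lists, 9 of pathways and 6 of cell markers, were chosen with earlier results of these data known, and no list test was made. Named genes are the kinases, every called member of a pathway list, every member of the complex and phosphatase lists, the 10 genes closest to Pdk4 and the 3 closest to each other kinase; other list members, called markers included, were named after their values were seen. Levels of the deleted genes themselves were not analysed here, so the group labels were not checked against them.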

Additional observations from a re-analysis of the deposited data

How the results depend on the processing

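The double KO differences of Pdk4 and Pdk1 kept their direction under all 17 alternatives. Every double KO value of both genes lay above all SMRT KO and control values. Fits without 1 mouse, with 2 groups or with a replicate block therefore could not have reversed them. Values are given below with double KO against control first, then double KO against SMRT KO, then SMRT KO against control.

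With only the 2 groups compared in the fit, 109, 124 and 0 genes were called. Array quality weights gave 285 called genes in the first comparison. Keeping genes above the median level gave 2 in the third. Leaving out 1 mouse at a time gave counts of 61 to 179, 101 to 234 and 0 to 23. The deviations of same-numbered mice from their group means had correlations of -0.0845 to 0.117. With so few mice per group these cannot decide whether the numbers mark a pairing, which the sample titles do not state. The replicate block gave 2 called genes in the third comparison.

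With 1 mouse left out at a time, the Pdk1 difference against SMRT KO was 0.63 to 0.80, Pdk2 in SMRT KO against control -0.06 to 0.13 and Pdk3 in double KO against control -0.04 to 0.05. Median centring of each array gave Pdk3 a value of -0.01 in double KO against control. Pdk3 has no value with genes above the median level only.

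Called complex subunits against control, 1 in the report, numbered 2 with genes above the median level, 0 with 2 groups in the fit and 0 with the replicate block, and 0 to 1 leaving out 1 mouse at a time. Against SMRT KO they numbered 1 with 2 groups and 1 with the replicate block, and 0 to 2 leaving out 1 mouse at a time. Called phosphatases against control numbered 0 after median centring, cyclic loess, 2 groups in the fit or the replicate block, and 0 to 1 leaving out 1 mouse at a time. Called pyruvate supply and use genes numbered 1 to 2 leaving out 1 mouse at a time in both double KO comparisons, and 1 against SMRT KO with 2 groups. Called factors acting on Pdk4 numbered 2 with genes above the median level, 2 with weights and 0 with the replicate block against control, and 1 with genes above the median level against SMRT KO; leaving out 1 mouse at a time they numbered 0 to 1 in each comparison. Called PPAR alpha targets numbered 4 to 7 against control leaving out 1 mouse at a time and 8 against SMRT KO with genes above the median level, and 0 to 1 leaving out 1 mouse at a time in SMRT KO against control. Called fasting genes numbered 1 to 3 against control leaving out 1 mouse at a time. Called hypoxia genes against control numbered 1 with genes above the median level, 2 groups or weights, and 0 to 1 leaving out 1 mouse at a time in both double KO comparisons. Called clock genes against control numbered 1 with genes above the median level or weights, and 0 to 1 leaving out 1 mouse at a time in both. The cause of these shifts was not tested, but fits without a mouse have fewer samples.

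The limits are 3 mice per group, an annotation that leaves probe sets without a gene, and genes with further probe sets. Some of these are not above background, as for Lpl, whose values moved when such a probe set was averaged in. For Fitm1 the further probe set had a mean above the receptor-gene percentile and gave a smaller difference than the one used. Genotype cannot be told apart from any difference in background between the groups. RNA levels do not measure kinase activity or phosphorylation of the complex.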
